A study of Homo sapiens with 4 samples.

Results

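The ISG15 conjugation machinery was examined in cells of SKOV3, a long-established human line from ovarian cancer, as 6 genes chosen by symbol: ISG15, UBA7, UBE2L6, HERC5, HERC6 and USP18. They were 6 of the 19475 gene symbols in the data and had 8 of the 50078 transcripts. The study asked which pathways differ between cells on a tissue culture plate (TCP) and tumor spheroids on a plate coated with polymer X, a polymer thin film. RNA-seq libraries were made in duplicate from SKOV3 cells in 2D culture on TCP, labelled day 0, and from SKOV3 spheroids after 8 days on polymer X. No group carried a transgene or received an added agent according to the labels. Substrate and culture time changed together and cannot be told apart. The labels give a medium with serum replacement for all 4 libraries, whereas the methods of the study give fetal bovine serum for maintaining SKOV3 cells, so it is uncertain which medium the cells on TCP had. The spheroids were broken up enzymatically from time to time during culture, according to the methods.

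ISG15 is a small protein with a pair of ubiquitin-like domains, made in quantity when cells respond to type I interferon. Like ubiquitin, it is joined to lysines of other proteins through a cascade. UBA7 is the E1 enzyme that activates it, UBE2L6 is the E2 enzyme that carries it, and HERC5 is the main human E3 ligase that transfers it to targets, often newly made proteins on the ribosome. HERC6 is a close relative of HERC5, and its mouse counterpart is the main ISG15 ligase in that species. USP18 is the protease that removes ISG15 from proteins, and it also binds the receptor subunit IFNAR2 and damps interferon signaling, a role in which free ISG15 stabilizes it. Transcription of these genes is classically driven by the factor ISGF3, which includes IRF9, through a promoter element termed ISRE.

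The modifier and its first enzymes were higher on polymer X, while the main ligase was not. The mean level of ISG15 was 8.35 times that on TCP, that of UBA7 4.08 times and that of UBE2L6 3.25 times. The protease gene USP18 had a ratio of 2.86 and HERC6 one of 1.73. HERC5 had a ratio of 0.964, and its values on polymer X and TCP overlapped.

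Promoter sequences are shown for ISG15 and HERC5, which gave the largest and the smallest change and both hold matches to the core of the ISRE, and for HERC6, which holds none. Promoters of 4 of the 6 genes were found in the RefSeq table (GRCh38.p14), which gives 250 bases before and 50 after each annotated start. UBA7 and USP18 had no entry. This core was searched on both strands as GAAA, any 2 bases and GAAA. The stretches from 150 to 51 bases before the start are shown for ISG15 (chr1:1013347-1013446), HERC5 (chr4:88456969-88457068) and HERC6 (chr4:88378702-88378801), all on the plus strand, with each match to the core or its reverse complement in capitals.
ISG15: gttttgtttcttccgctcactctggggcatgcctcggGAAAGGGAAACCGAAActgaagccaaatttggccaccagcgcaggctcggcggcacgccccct
HERC5: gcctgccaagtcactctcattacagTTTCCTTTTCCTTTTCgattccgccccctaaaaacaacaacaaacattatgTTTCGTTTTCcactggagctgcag
HERC6: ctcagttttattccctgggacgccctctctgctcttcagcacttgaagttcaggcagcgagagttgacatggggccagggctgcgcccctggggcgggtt

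The ISG15 window held 2 matches on the strand of the gene, which overlap and begin 113 and 107 bases before the start. The HERC5 window held 3 matches on the other strand, of which the pair that reaches up to 125 and 119 bases before the start overlap, and the third reaches up to 74 bases before it. No match lay in the windows of HERC6 or of either of the 2 starts of UBE2L6. The core occurred in 3.57% of all 35116 promoters. Among the tested genes with a promoter in the table, 14.8% of the 357 with a match were called higher on polymer X, against 9.68% of the 9194 without one. The interferon-stimulated genes listed below, of which 26 of 33 with an entry hold the core, were not set apart in these shares. A further motif, TTC, any 3 bases and GAA, the core of the element bound by STAT dimers, occurred in 7.66% of the promoters and in none of the windows of the 4 genes. For this motif, 10.7% of the 795 tested genes with a match were called higher, against 9.8% of the 8756 without one. Differences between these shares were not tested. A match describes the letters only, and no match says nothing of a factor acting from elsewhere.

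**Figure D1:**
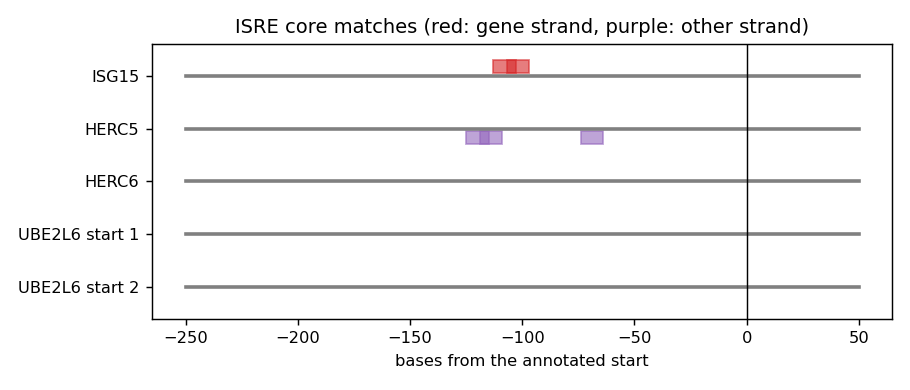
Positions of matches to the ISRE core in 5 promoter windows of 4 ISG15 conjugation genes, in bases from the annotated start (vertical line at 0), with matches on the strand of the gene in red and on the other strand in purple. ISG15 has 2 matches and HERC5 has 3, all within 125 bases before the start, and HERC6 and both UBE2L6 windows have none.

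The deposited unit was FPKM, the tags on a RefSeq transcript of hg19 relative to its length and to all tags of the library. The steps between low values put the number of tags scaled to at 38402000 to 44916000 per library. Of the 19475 genes, 11964 reached 1 FPKM in 2 or more libraries and were tested with limma on log2(FPKM + 1). A call, higher or lower, needed a Benjamini-Hochberg adjusted p under 0.05 together with a log2 fold change of 1 or more in either direction. Called higher were 10.7% of the tested genes and called lower 9.45%, and the median log2 fold change was -0.058. The libraries correlated at 0.998 within TCP and 0.997 within polymer X, and at 0.854 to 0.862 between groups, over the tested genes. The labels do not say whether the duplicates were separate cultures, so the p-values measure only the spread between these libraries, which may be technical. An exact permutation test of 2 against 2 libraries cannot give a two-sided p below 0.333.

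ISG15 (NM_005101, hg19 chromosome 1, 948847 to 949919, plus strand) had FPKM values of 12.0 and 10.6 on TCP and of 104.8 and 83.2 on polymer X. Both polymer X libraries lay far above both TCP libraries, and the polymer X pair differed by more than the TCP pair. The means were 11.3 ± 0.989 (SD, n = 2) and 94.0 ± 15.3 (SD, n = 2), from 304 and 314 tags on TCP and 2776 and 2240 on polymer X. Its log2 fold change was 2.95 (standard error 0.10, 95% interval 2.72 to 3.18, adjusted p = 1.2e-08 from limma), the largest of the 6 genes. In level, ISG15 ranked 3 among the 6 genes on TCP and 1 on polymer X.

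UBA7 (NM_003335, chromosome 3, 49842638 to 49851391, minus strand), the activating enzyme, had the lowest level of the 6 genes in every library. Its FPKM values were 0.515 and 0.461 on TCP and 1.85 and 2.14 on polymer X, from 65 and 68 tags against 243 and 286. The groups did not overlap. UBA7 passed the filter on low values only through the polymer X libraries, so its entry into the test already required a high value there. Its log2 fold change was 1.01 (standard error 0.09, 95% interval 0.81 to 1.21, adjusted p = 4.3e-06 from limma), just past the minimum of 1. On this scale the change of a gene near 1 FPKM is understated, and with a pseudocount of 0.1 the log2 fold change was 1.83. It was 0.56 under quantile normalization and 0.98 without TCP replicate 2, where the call was lost.

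UBE2L6 (NM_004223, chromosome 11, 57319128 to 57335180, minus strand), the carrier enzyme, had FPKM values of 17.6 and 15.4 on TCP and of 54.9 and 52.2 on polymer X. The polymer X pair lay about as close together as the TCP pair and well above it. It rose with a log2 fold change of 1.64 (standard error 0.07, 95% interval 1.48 to 1.81, adjusted p = 4.6e-08 from limma). Its other transcript, NM_198183, which starts further upstream and shares tags with the first, had values of 12.8 and 10.9 on TCP and 39.2 and 37.5 on polymer X, a log2 difference of 1.62. UBE2L6 ranked 21 in level among 37 UBE2 genes on TCP and 3 on polymer X.

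HERC5 (NM_016323, chromosome 4, 89378268 to 89427319, plus strand), the ligase, had FPKM values of 12.4 and 13.2 on TCP and of 13.1 and 11.6 on polymer X. The groups overlapped, with the highest value on TCP and the lowest on polymer X. Between 1647 and 2066 tags stood behind each value, so depth did not limit the comparison. The log2 fold change was -0.050 (standard error 0.07, adjusted p = 0.53 from limma), with a 95% interval of -0.21 to 0.11 that lies below the intervals of the other 5 genes. Its sign turned, to 0.058 under quantile normalization and to 0.030 without polymer X replicate 2.

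HERC6 (NM_001165136, chromosome 4, 89299891 to 89364249, plus strand) lies 14018 bases from HERC5 in the same orientation. Its FPKM values were 4.63 and 4.76 on TCP and 9.31 and 6.96 on polymer X. The TCP pair was close, whereas polymer X replicate 1 stood well above replicate 2, and both lay above TCP. With a log2 fold change of 0.67 (standard error 0.11, 95% interval 0.42 to 0.92, adjusted p = 3.5e-04 from limma) HERC6 passed the adjusted p but not the minimum of 1. Without polymer X replicate 1 the value was 0.48, and without replicate 2 it was 0.86. Its second transcript, NM_017912, had a log2 difference of 0.66.

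USP18 (NM_017414, chromosome 22, 18632758 to 18660162, plus strand), the protease, had FPKM values of 1.13 and 1.11 on TCP and of 3.04 and 3.39 on polymer X, from 88 to 279 tags. The groups did not overlap, and the polymer X libraries were in the opposite order to that of ISG15 and HERC6, with replicate 2 higher. The log2 fold change of 0.99 (standard error 0.08, 95% interval 0.81 to 1.17, adjusted p = 2.9e-06 from limma) fell just short of the minimum, as that of UBA7 fell just past it. It was 1.44 with a pseudocount of 0.1, 1.02 after scaling all libraries to 1 median and 1.05 without polymer X replicate 1, and USP18 was then called higher. USP18 has a near-identical copy, USP41, which had no entry of its own in the data, so the value may be shared between them.

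**Figure D2:**
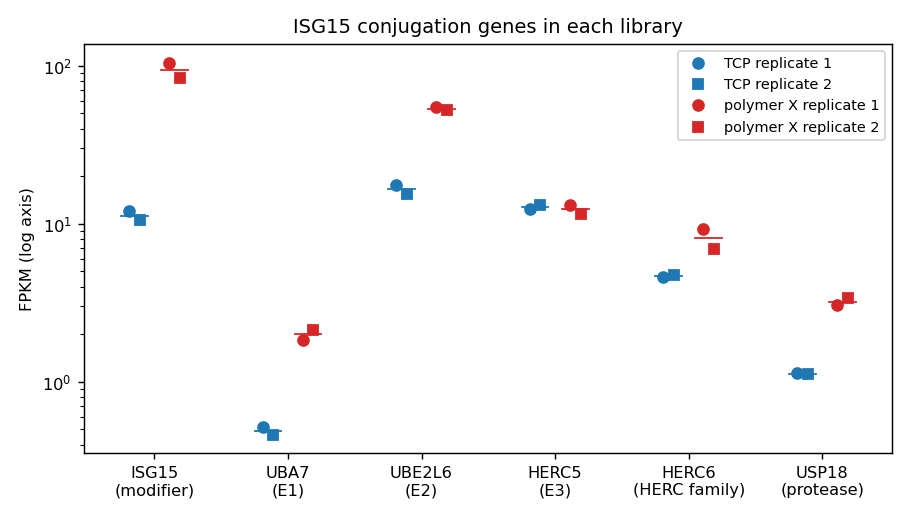
FPKM of the 6 ISG15 conjugation genes in each of the 4 libraries on a log axis, with TCP in blue, polymer X in red, circles for replicate 1, squares for replicate 2 and a short line for the mean of each group. For 5 genes both red points lie above both blue points, and for HERC5 they overlap between 11.6 and 13.2.

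In all, 3 of the 6 genes were called higher (ISG15, UBE2L6 and UBA7) and 0 lower, where 10.7% of all tested genes were called higher. At the adjusted p alone, 5 of the 6 passed as higher, beside 37.4% of all tested genes in that direction and 81.0% in either direction. Both polymer X libraries lay above both TCP libraries for those 5 genes, as for 41.9% of the tested genes. Among all tested genes both lay below in 48.4%, so that the groups did not overlap in either direction for 90.4%. The median log2 fold change over the 6 genes was 1.00, against -0.058 over all tested genes. Since UBA7 had to be high on polymer X to be tested at all, these counts describe the genes and are not a test of the group.

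**Figure D3:**
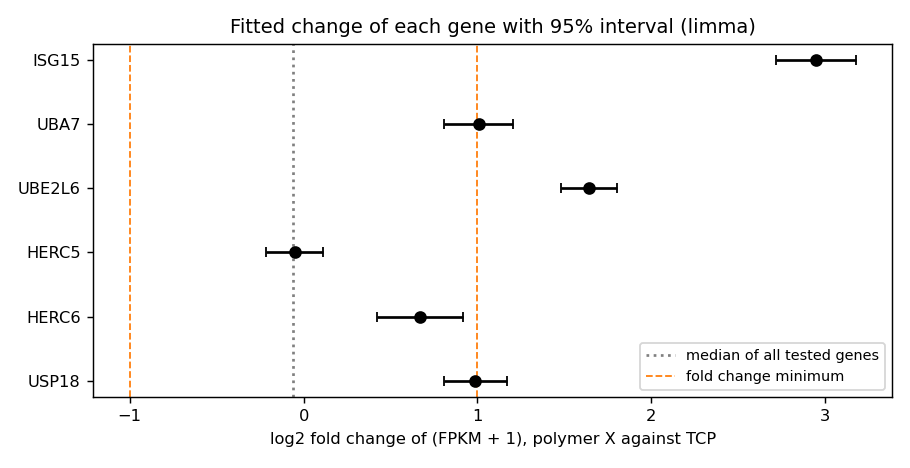
Log2 fold change of (FPKM + 1) from TCP to polymer X for each gene, with the 95% interval from limma, dashed lines at the fold change minimum of 1 in either direction and a dotted line at the median of all tested genes (-0.058). ISG15 and UBE2L6 lie wholly above 1, the intervals of UBA7 and USP18 span it, and that of HERC5 spans 0.

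The unequal changes altered the balance between the transcripts of modifier and enzymes within each library, on the per-length scale of FPKM. These ratios restate the fold changes and say nothing of protein levels. ISG15 was at 0.963 and 0.802 times the level of HERC5 on TCP and at 8.01 and 7.18 times on polymer X. Relative to UBE2L6, ISG15 went from 0.679 and 0.687 to 1.91 and 1.59. ISG15 was thus below both genes in each TCP library and above both in each polymer X library.

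Relative to the protease, ISG15 was at 10.6 and 9.50 times the level of USP18 on TCP and at 34.5 and 24.5 times on polymer X. UBE2L6 kept a steadier ratio to UBA7, at 34.2 and 33.3 on TCP and 29.7 and 24.4 on polymer X. HERC5 was at 24.1 and 28.6 times the level of UBA7 on TCP and at 7.08 and 5.42 times on polymer X.

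**Figure D4:**
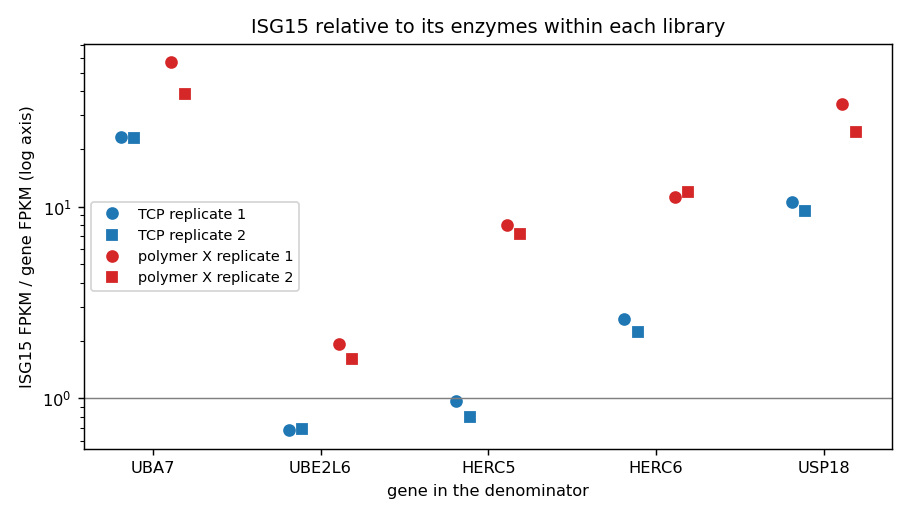
Ratio of the FPKM of ISG15 to that of each other gene within each library, on a log axis, with TCP in blue and polymer X in red. Both polymer X ratios exceed both TCP ratios for all 5 genes, and those to UBE2L6 and HERC5 cross the line at 1.

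On TCP the order of levels was UBE2L6, HERC5, ISG15, HERC6, USP18 and UBA7, and on polymer X it was ISG15, UBE2L6, HERC5, HERC6, USP18 and UBA7. In each group both libraries of every gene lay above both libraries of the next gene in that order. The last 3 places were the same in both groups.

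The rise of UBE2L6 and UBA7 was compared with related enzymes, in families gathered by symbol after these values were seen. Of the 32 tested UBE2 genes, UBE2L6 was the 1 called higher, 3 were called lower and the median log2 fold change was -0.42. The 3 lower genes were UBE2S, UBE2C and UBE2T, of which the first pair are the ubiquitin carriers of the anaphase-promoting complex and the third serves Fanconi repair. Of 8 E1 genes, UBA7 was the 1 called higher, 2 were called lower (SAE1 and NAE1), and the family median was -0.52. UBA7 was tested only through its polymer X values, and its call was lost under quantile normalization. Over all tested genes, 10.7% were called higher and 9.45% lower. USP18 had the second highest log2 fold change of (FPKM + 1) of the 44 tested USP genes, just after USP20 at 0.996, and the family median was -0.10. USP20 had FPKM values of 3.28 and 2.79 on TCP and of 6.81 and 7.25 on polymer X. USP18 lay nearer 1 FPKM on TCP, where this scale understates a change, so the order of the pair may depend on the pseudocount. Of the USP genes 0 were called higher and 2 lower, USP1 at -1.23 and USP39 at -1.31.

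UBE2L3, the nearest relative of UBE2L6 and a ubiquitin carrier, had FPKM values of 38.4 and 37.9 on TCP and of 23.2 and 20.7 on polymer X. It was at 2.18 and 2.47 times the level of UBE2L6 on TCP and at 0.423 and 0.397 times on polymer X, so the order of the 2 carriers turned over. Its log2 fold change of -0.77 (adjusted p = 3.5e-06 from limma) did not reach the minimum. Among the other HERC genes, HERC1, HERC2 and HERC4 had log2 fold changes of -0.21, -0.65 and -0.72, and HERC3, from the same region of chromosome 4 as HERC5 and HERC6, one of 0.27. None of the 6 HERC genes was called in either direction.

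Other ubiquitin-like modifiers have E1, E2 and protease genes of their own, which were set beside those of ISG15. Of the 49 genes listed for ubiquitin, SUMO, NEDD8, UFM1, FAT10 and URM1, 47 were tested, 1 was called higher and 5 lower, with a median log2 fold change of -0.25. Of all tested genes, 10.7% were called higher and 9.45% lower, so the 5 of 47 called lower are near the share over all genes. The gene called higher was the SUMO protease SENP7, at 1.02, and 0 were called higher without TCP replicate 2 or without polymer X replicate 2. The genes called lower were SAE1, an E1 subunit for SUMO, at -1.82, the SUMO proteases SENP1 and SENP3 at -1.23 and -1.14, NAE1, an E1 subunit for NEDD8, at -1.17, and RPS27A, which encodes ubiquitin fused to a ribosomal protein, at -1.04.

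By system, the medians were -0.46 for the 6 ubiquitin genes, -0.34 for the 17 SUMO genes, -0.45 for the 12 NEDD8 genes and -0.47 for the 4 URM1 genes. The UFM1 system, with 7 tested genes and 0 called, had a median of 0.19. UBD, which encodes FAT10 and is itself inducible by cytokines, was listed at 0 in all 4 libraries. No difference between systems was tested.

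**Figure D5:**
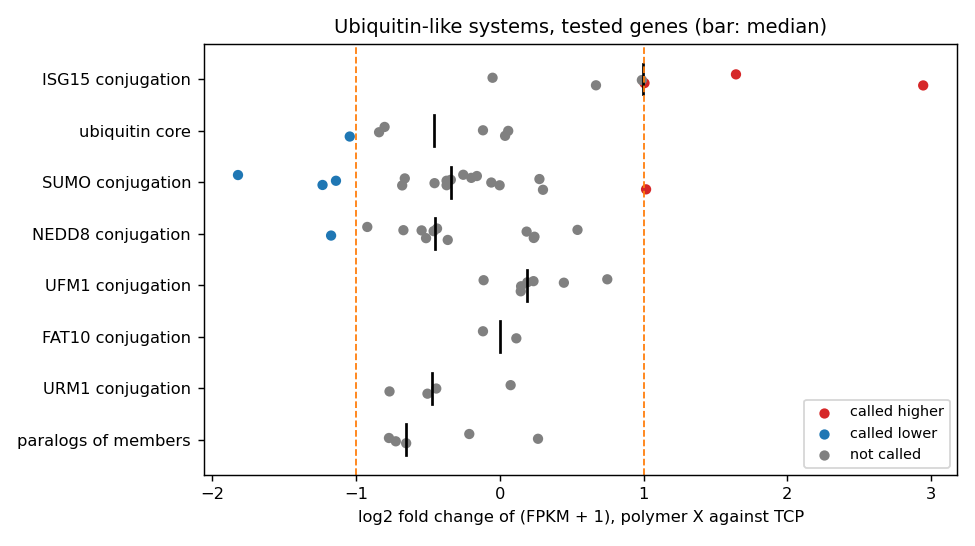
Log2 fold change of (FPKM + 1) from TCP to polymer X for the tested genes of each ubiquitin-like system and of the paralogs of the ISG15 conjugation genes, 1 point per gene, red if called higher, blue if called lower, grey if not called, with a black bar at the median of each row. The ISG15 row has 3 red points and the SUMO row 1, and the other rows have none.

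Genes that act on ISG15 or USP18 outside the core cascade gave a mixed picture. Of the 9 listed, 8 were tested, 1 was called higher and 1 lower, and the median log2 fold change was -0.44. These counts are near the shares over all tested genes, 10.7% higher and 9.45% lower. ITGB2, which encodes the beta chain of LFA-1, a receptor for secreted ISG15, rose from FPKM values of 0.587 and 0.631 to 4.282 and 4.196, a log2 fold change of 1.70 (adjusted p = 6.0e-08 from limma). ITGB2 passed the filter through the polymer X libraries alone, and without either of them 0 of these genes were called higher. ITGAL, the partner chain without which LFA-1 does not form, had at most 2 tags in any library.

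SKP2, a subunit of a ubiquitin ligase that targets USP18 for degradation and acts in the cell cycle, fell from 18.4 and 19.3 FPKM to 6.46 and 6.17, a log2 fold change of -1.44 (adjusted p = 4.6e-08 from limma). The other ISG15 ligases in the list, TRIM25 and ARIH1, had log2 fold changes of 0.12 (95% interval -0.01 to 0.25) and -0.16. USP16, USP14 and USP5, ubiquitin proteases that can also react with ISG15, had values of -0.93, -0.91 and -0.72, and USP21 had 0.20.

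The change of ISG15 stood beside that of other interferon-stimulated genes. Of 40 such genes listed, 38 were tested, with a median log2 fold change of 1.59. IFIT1, IFIT2, OAS1, OAS2, OASL, MX1, MX2, IFI44L, IFITM1, RSAD2, IFIH1, XAF1, TRIM22 and SAMD9L were under 1 FPKM in both TCP libraries. They entered the test only through polymer X, and every one of them is among those called higher. The list is therefore described and not tested as a group. Called higher were 27 and called lower 0, where 10.7% of all tested genes were called higher. The count was 13 without polymer X replicate 1 and 14 without polymer X replicate 2, since genes that reach 1 FPKM on polymer X alone are then not tested. The ISRE core lay in the promoters of 26 of the 33 that had an entry. Of the 38, 35 were higher in polymer X replicate 1 than in replicate 2 (92.1%, against 63.8% of all tested genes), as were ISG15, UBE2L6, HERC5 and HERC6 but not UBA7 or USP18. Not every gene of the list moved upward. EIF2AK2, ZC3HAV1 and PARP12 had log2 fold changes of -0.55, -0.55 and -0.23, all with an adjusted p under 0.05 from limma, so HERC5 was not alone in the absence of a rise.

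Of the 10 genes for the interferon receptor and ISGF3 pathway, IRF9, STAT2 and IRF7 were called higher, with log2 fold changes of 2.12, 1.85 and 1.72, and 0 were called lower. The shares over all tested genes were 10.7% higher and 9.45% lower. IFNAR2, the receptor subunit bound by USP18, had a log2 fold change of 0.43. Of 14 interferon genes, 11 had at most 3 tags in every library, IFNB1 and IFNG among them at 0. IFNE, a type I interferon of epithelia, was the 1 tested, with FPKM values of 1.04 and 0.817 on TCP and 4.42 and 4.38 on polymer X, or 1.49 as a log2 fold change (adjusted p = 2.7e-07 from limma).

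The genes next to the 6 on their chromosomes did not move as a block. AGRN, 5583 bases from ISG15, rose with a log2 fold change of 1.06, whereas HES4 on the other side had -0.46. Next to UBA7, TRAIP fell with -1.33, and INKA1, 174 bases away, was under the filter. SERPING1, 29223 bases from UBE2L6 and itself an inhibitor of complement, rose with 2.54, from 0.029 and 0.037 FPKM to 5.08 and 4.96, and SMTNL1 on the other side was under the filter. PYURF beside HERC5 had -0.56, PPM1K beside HERC6 had 0.38, DGCR6 beside USP18 had 0.51, and TUBA8 on its other side was under the filter. No listed transcript overlapped any of the 6 genes, so tags counted without regard to strand were not shared with an annotated partner in the table.

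By the distance between centred log2(FPKM + 1) values over the 4 libraries, the genes most like ISG15 were DCN (0.131), a matrix protein gene also counted among the fibroblast markers, C2orf88 (0.155), IFI44L (0.161), IFI44 (0.178) and TXNIP (0.187). Their log2 fold changes of (FPKM + 1) lay between 2.82 and 2.97. DCN and IFI44L were under 1 FPKM in both TCP libraries and passed the filter through polymer X alone. Their ratios of mean FPKM were 538 and 178, against 8.35 for ISG15, so on the FPKM scale they were not alike. Over so few libraries this likeness reflects little more than a similar fold change of (FPKM + 1).

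The cell type markers were checked, since interferon-stimulated genes are also expressed by other cells. The epithelial markers did not move together. Of 10 listed, 6 were tested, and ERBB2, PAX8 and EPCAM were called higher, with log2 fold changes of 2.13, 1.06 and 1.05. The share called higher over all tested genes was 10.7%. EPCAM passed the filter through the polymer X libraries alone, from 0.168 and 0.104 FPKM to 1.39 and 1.32. The keratins KRT8, KRT7 and KRT18 had log2 fold changes of -0.87, -0.76 and -0.44, all with an adjusted p under 0.05 from limma but short of the minimum. MUC16, WT1, KRT19 and CDH1 were under the filter. Of 10 immune markers, the summed FPKM was 17.2 and 17.6 on TCP and 43.3 and 46.2 on polymer X, nearly all from CD68, a lysosomal protein also made outside macrophages. CD3E, CD3D, MS4A1 and CLEC4C were at 0 in all 4 libraries, and PTPRC had 0.005 and 0 FPKM on TCP and 0.468 and 0.530 on polymer X. The 7 fibroblast and endothelial markers summed to 0.353 and 0.518 FPKM on TCP and 32.2 and 26.3 on polymer X, nearly all from LUM and DCN, with both polymer X libraries above TCP for 4 of the 7, and of the other 5, PECAM1 had 0 FPKM in both TCP libraries and 0.573 and 0.458 on polymer X, while PDGFRB, THY1, VWF and CDH5 were at most 0.184 in any library. Both polymer X libraries were above TCP for 4 of the 10 immune markers. Over all tested genes this held for 41.9%, although only 1 immune marker and 2 fibroblast and endothelial markers were tested. The part of these genes in the changes of the ISG15 machinery was not tested. In bulk libraries, fewer cells of a type and less RNA per cell cannot be told apart.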

How the data were processed

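Per the file headers, the authors ran HOMER on hg19, counting tags on exons of either strand, and deposited an FPKM per RefSeq transcript and library to 3 decimals. The submitters' processing notes also name STAR 2.4.0 and DESeq, and the HOMER version is not given in the sources used here. FPKM multiplied by transcript length fell within 0.1 of a whole number of tags for all low values used, which gave the tags per library. Tag numbers cover counting error only. Each symbol was represented by its transcript of highest mean. Genes at 1 FPKM or more in at least 2 libraries were fitted by limma 3.58.1 (R 4.3.3) to log2(FPKM + 1) (mean-variance trend, no replicate block, Benjamini-Hochberg over all 11964 genes). The fit was tested on simulated tags. Members and gene lists were chosen with earlier results of these data known. The lists were written from general knowledge. Named were all members, accessory genes and paralogs, the called genes of the other systems, the 5 genes nearest to ISG15 and the chromosomal neighbours, and any other gene was chosen after its values were seen. Alternatives were a pseudocount of 0.1, the filter removed or set at a mean FPKM of 5, 2 scalings, the replicate block, summed transcripts, no trend, other fold change minimums and each library left out. Plots were drawn with matplotlib 3.10.9. Promoter sequences came from RefSeq (GRCh38.p14), and no coordinates were moved between builds. The values of 1 gene of the receptor and ISGF3 list are not reported here.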

Additional observations from a re-analysis of the deposited data

How the results depend on the processing

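Of 264 values recomputed under the alternatives, 220 kept their direction and side of the threshold or stayed within 1.5 times the main count. ISG15 (2.78 to 3.15) and UBE2L6 (1.55 to 1.89) were called higher under all 12 alternatives that kept the fold change minimum of 1, and HERC6 (0.48 to 0.86) under none of them. UBA7 lost its call under quantile normalization (0.56) and gave no value at a mean FPKM of at least 5 or without either polymer X library, where it does not pass the filter. USP18 gained a call with a pseudocount of 0.1 (1.44) and under median scaling (1.02), and gave no value at a mean FPKM of at least 5. HERC5 changed sign under quantile normalization (0.058) and without polymer X replicate 2 (0.030). Apart from the filter, the cause was not tested.

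Without a fold change minimum, 5 of the 6 genes were called higher, and of all genes 4477 were higher and 5212 lower. Of the accessory genes 2 were then higher and 5 lower, of the paralogs 1 and 4, of the other ubiquitin-like systems 11 and 26, and of the receptor and ISGF3 genes 6 and 2, while 3 interferon-stimulated genes were lower. With a minimum log2 fold change of 2, 1 of the 6 genes (ISG15) was higher, with 281 of all genes higher and 150 lower, 10 interferon-stimulated genes and 1 ISGF3 gene higher, and 0 of the accessory genes and other systems in either direction. With the filter at a mean FPKM of 5, which tests fewer genes, 702 of all genes, 15 interferon-stimulated genes and 0 accessory genes or genes of the other systems were higher, and 42.2% of all calls were higher, against 53.2%. Quantile normalization left 0 genes higher and 2 lower in the other systems. In the receptor and ISGF3 list, 1 gene was lower with a pseudocount of 0.1 and with summed transcripts.

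Where 1 library was left out, the lone library of its group is assumed to vary like the others. The 6 genes then gave 2 to 3 called higher. Log2 fold changes ranged from 0.98 to 1.03 for UBA7 (called without TCP replicate 1 but not without TCP replicate 2), from -0.13 to 0.030 for HERC5 and from 0.93 to 1.05 for USP18. Counts ranged from 0 to 1 for accessory genes higher, 0 to 1 for other systems higher, 13 to 28 for interferon-stimulated genes higher and 0 to 1 for ISGF3 genes lower. The interferon count was 13 without polymer X replicate 1 and 14 without replicate 2, since genes seen only on polymer X then fail the filter. ITGB2 was not called without either polymer X library for that reason.

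With the replicate block, the same 3 of the 6 genes were called higher, so the block changed no call among the 6. The totals over all genes were again 1285 higher and 1131 lower, but calls outside the 6 were not compared gene by gene. Deviations from the group means correlated at 0.093 between same-numbered libraries over 11964 genes, and with 2 pairs no pairing was assumed. Depth limits ITGAL and most interferon genes, with at most 3 tags per library except IFNA1, IFNA8 and IFNE.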
